A study of Elaeis guineensis with 6 samples.

Results

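In inflorescences of oil palm (Elaeis guineensis), 191 genes were lower after complete defoliation at every leaf axil that was sequenced. They were chosen by their own measured values. A gene entered when its lowest FPKM among the control libraries was at least 3 and was at least 2 times its highest FPKM among the stress libraries, and when its identifier stood on 1 record of the table. FPKM is a level per length of gene and per size of library, and it does not correct for differences in composition between libraries. The 191 genes came from 31653 identifiers on 1 record, in a table of 32099 records. Because all 6 values of a gene were used to select it, the difference between control and stress is described for these genes and was not tested.

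The oil palm carries a single inflorescence in the axil of each leaf, and that inflorescence becomes female, male or, rarely, mixed. Removing leaves cuts the supply of sugars to the crown and is used by breeders to obtain male inflorescences. Leaf axils with negative numbers belong to leaves that have not yet opened and hold younger inflorescences than axil +5.

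The control libraries came from an untreated palm, at leaf axils -27, -20 and +5. The stress libraries came from the same axils of a palm stripped of its leaves except the central unopened one, and both palms were sampled 45 days after the treatment. There was 1 library for each treatment and axil, with no replicate, and 1 palm per treatment. The axils of a palm are therefore no replicates of the treatment, and a difference between the treatments cannot be told apart from a difference between the palms, their genomes included. RNA came from inflorescence tissue of mixed cell types, in which fewer cells of a type and less RNA per cell cannot be told apart.

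The FPKM sums of the libraries lay between 238672 and 268805. Relative depth, read from what 1 fragment was worth in low genes, was between 0.948 and 1.19 times that of control -27, and the absolute depth behind an FPKM value was not recovered from the table. Inflorescence identity was checked with 7 genes found of a fixed list of floral and meristem regulators. KNOX1, a KNOTTED-like homeobox gene of the kind that maintains shoot meristems, had an FPKM of 847, 480 and 381 in control -27, -20 and +5 and of 961, 914 and 928 in the stress libraries. SQUA1, a MADS-box gene of the SQUAMOSA type, stood at 124 in control +5 and 150 in stress +5 and under 10 in the other 4 libraries. AG2, a MADS-box gene of the AGAMOUS type, was listed at 0 in all 6, and AGL2-3, AGL6-1 and DEF1, also MADS-box genes, were above 0 in 1 control library each, at 0.153, 2.21 and 0.164. GLO2, a MADS-box gene of the GLOBOSA type, was lower under stress at every axil, as the 191 genes were, with 3.61, 4.86 and 7.83 in control and 2.15, 0.844 and 3.51 in stress, and what it has in common with the result was not tested. The 7 genes summed to 857, 492 and 515 FPKM in control and to 968, 923 and 1081 in stress. A list of 7 plastid-encoded genes of photosynthesis, which marks green tissue, summed to 1.31, 1.16 and 1.46 FPKM in control -27, -20 and +5 and to 0.0835, 0.168 and 0.303 FPKM in stress. The sum was near 0 in every library and was lower in stress at all 3 axils, but not every gene of the list was. psbB was at 0 in control +5 and at 0.175 in stress +5. The part of these markers in the result was not tested.

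Of the 12064 records whose lowest control FPKM was at least 3, the 191 genes were 1.58%. With control and stress exchanged, the same criteria took 74 of 11755 records, or 0.63%. None of the 446 records on repeated identifiers met the criteria. Applied without control +5 the criteria took 312 genes, and without stress +5 they took 302, where leaving out a library can only keep or add genes. The median FPKM of the 191 genes was 10.7, 10.3 and 14.8 in control -27, -20 and +5, and 2.09, 1.96 and 2.17 in stress -27, -20 and +5. The medians of all 12064 records lay between 9.56 and 9.98 in control and between 8.95 and 9.36 in stress. The 191 genes were thus near all records in level at control -27 and -20, above them at control +5 (14.8 against 9.98) and low in the defoliated palm. They made up 1.47% to 1.95% of the FPKM sum of a control library and 0.286% to 0.322% of that of a stress library.

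**Figure D1:**
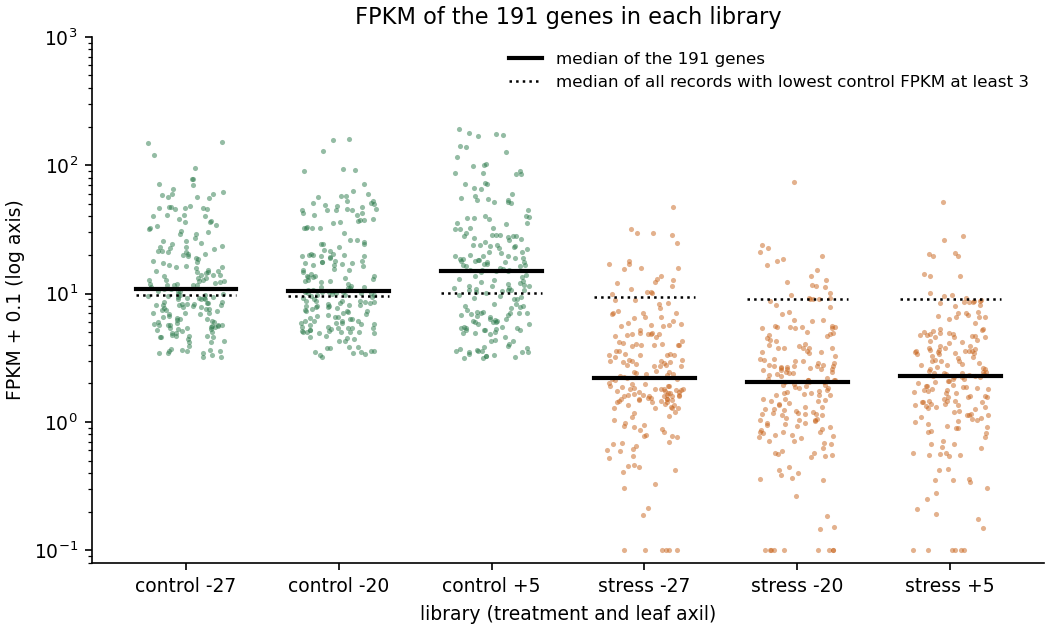
FPKM of each of the 191 genes in each library (points, log axis, 0.1 added so that values of 0 sit at 0.1), with their median (solid bar) and the median of all 12064 records with a lowest control FPKM of at least 3 (dotted bar). The solid bars stand at 10.3 to 14.8 in the control libraries and at 1.96 to 2.17 in the stress libraries, while the dotted bars stay between 8.95 and 9.98; all 191 genes are separated between treatments because that separation selected them.

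The separation between the palms, taken as the lowest control FPKM over the highest stress FPKM, had a median of 2.70 over the 187 genes that were above 0 in at least 1 stress library. It ran from 2.002 to 33.4. It lay between 2 and 3 in 108 genes, between 3 and 5 in 42, between 5 and 10 in 29 and at 10 or more in 8. Most of the genes were lower but still present in the defoliated palm. In 126 of them every stress FPKM was at least 1, while in 24 the highest stress FPKM was under 1.

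Near the limit of 2, LOC105038220 lay just inside it (control 55.9, 52.3 and 86.8 FPKM, stress 24.7, 17.9 and 26.1 at -27, -20 and +5), as did LOC109505744 (control 8.26, 8.25 and 7.74, stress 3.87, 2.53 and 2.05). Just outside it stood LOC105059758 (control 33.8, 35.7 and 38.4, stress 15.9, 16.01 and 16.9) and LOC105034144 (control 15.6, 17.4 and 17.4, stress 7.84, 6.70 and 6.29). These genes inside and outside the limit differ little from each other, so the number 191 marks a point on a continuous scale. At the FPKM limit of 3, LOC105047926 was just inside (control 5.67, 4.18 and 3.06, stress 1.07, 1.16 and 1.33). LOC105055238, with control values of 4.42, 4.45 and 2.94 and stress values of 0.0561, 0.0373 and 0.0910, was just outside although its treatments were far apart.

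Genes listed at 0 in all 3 stress libraries were kept apart, since no ratio can be formed and an FPKM of 0 can be a failed estimate. There were 4 of them. LOC105058122, a protein-coding gene on chromosome 15, had the highest control mean of these, with 12.2, 15.1 and 6.52 FPKM at -27, -20 and +5. LOC105033102, a long non-coding RNA (lncRNA) on chromosome 2, was level across the control axils at 8.22, 8.03 and 8.19. The other two were close to the limit of 3 in their lowest library. LOC105036376, which the gene table used here did not match, had 3.47, 5.42 and 3.38, and LOC105043021, an lncRNA on chromosome 4, had 3.33, 4.94 and 3.40. LOC105049336, also at 0 in every stress library, missed the limit with control values of 2.96, 3.50 and 2.88.

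Genes at 0 throughout a palm were about as many in either direction. Over the whole table, 17 identifiers were at 0 in all stress libraries and at least 1 in all control libraries, and 14 showed the opposite. At a minimum of 3 FPKM the counts were 4 and 4, and 5 identifiers were at 0 in a single library and at least 3 in the other 5. A gene that the defoliated palm lacks, or carries in a form to which its reads do not align, cannot be told apart from a gene that was silent after defoliation.

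A further 7 of the 191 genes were at 0 in 1 or 2 stress libraries but not in all. LOC105061441 (chromosome 8) was at 6.21, 7.86 and 15.6 FPKM in control -27, -20 and +5, at 0 in stress -27 and -20, and at 0.258 in stress +5. LOC105051963, on the same chromosome, had control values of 4.46, 3.76 and 23.4, was also at 0 in stress -27 and -20, and reached 1.34 in stress +5. Both were detected in the defoliated palm only at the oldest axil, which is also where their control values were highest. LOC105038353 (chromosome 1) was at 3.20, 0 and 2.93 in stress, an isolated 0 between clearly detected values, against 22.9, 20.003 and 44.9 in control. LOC105050816, an lncRNA on chromosome 8, was at 7.84, 8.48 and 6.63 in control and at 1.44, 0.820 and 0 in stress.

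The largest ratios above 0 belonged to LOC105061408 (chromosome 8), with 4.66, 6.48 and 3.04 FPKM in control and 0.0890, 0 and 0.0909 in stress at -27, -20 and +5, a ratio of 33.4 between the closest values. Its stress values are near 0, and under quantile normalization its ratio was 19.9 and no longer the largest. LOC105061441, given above, followed at 24.1. LOC105057259 (chromosome 14) had 36.4, 47.8 and 99.1 in control and 1.55, 1.27 and 0.326 in stress, a ratio of 23.5. LOC105057259 differs from the first pair in that it was well expressed in the control palm, and its trends across the axils ran in opposite directions, up in control and down in stress. LOC105054709 (chromosome 2) had 8.06, 6.34 and 5.34 in control and 0.112, 0.0838 and 0.242 in stress, a ratio of 22.1.

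The next 8 genes had ratios from 7.93 to 13.5. LOC105058610 (chromosome 15) was at 48.3, 56.1 and 23.5 FPKM in control and at 0.362, 1.74 and 0.892 in stress. LOC105055440, an lncRNA on chromosome 2, was at 32.5, 29.3 and 10.3 in control and at 0.671, 0.771 and 0.662 in stress. LOC105051040 was steady in control at 20.4, 19.2 and 19.7 and was at 1.68, 0.728 and 0.736 in stress. Most stress values of this pair were under 1 FPKM and rest on few fragments, so steadiness in the defoliated palm cannot be judged from them. LOC105044616, with 65.2, 45.8 and 101 in control and 2.61, 4.78 and 5.13 in stress, had the highest control mean of the 8. LOC105040479 went down along the axils in both palms, from 47.0 through 41.1 to 27.8 in control and from 3.26 through 2.31 to 0.453 in stress. LOC105054667, annotated as a pseudogene, was at 8.33, 6.84 and 10.2 in control and at 0.776, 0.736 and 0.745 in stress. The remaining genes of this set, LOC105050846 (ratio 10.2) and LOC105047564 (ratio 7.93), were at most 0.447 in any stress library.

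**Figure D2:**
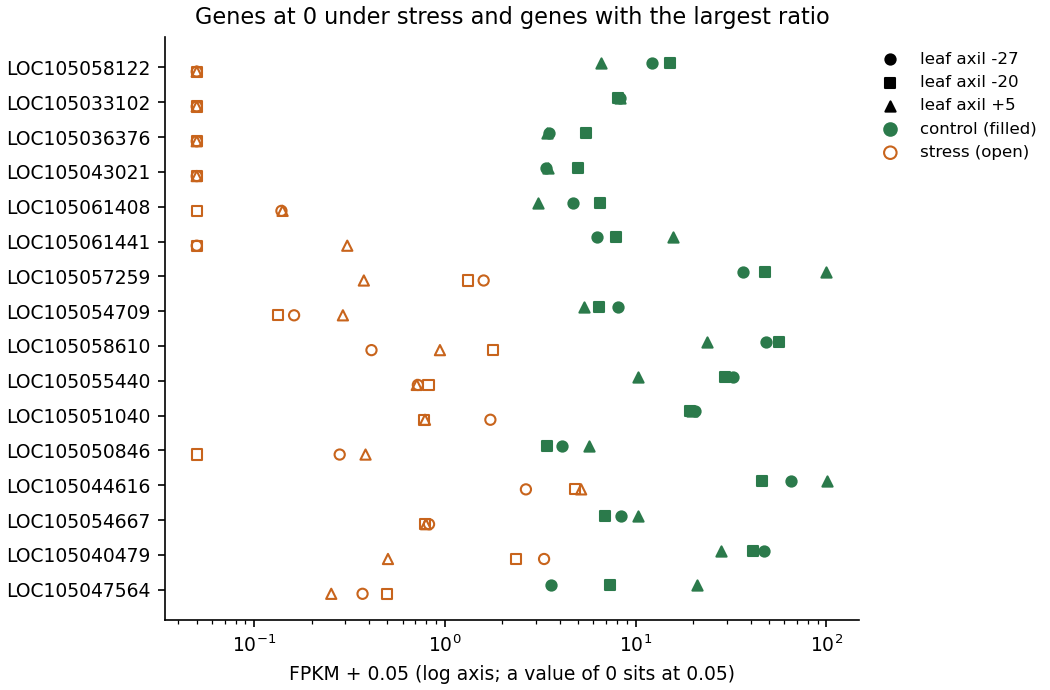
FPKM (horizontal log axis, 0.05 added so that a value of 0 sits at 0.05) of the 4 genes at 0 in all stress libraries and the 12 other genes with the largest ratio. Filled symbols are control and open symbols stress, and the symbol shape gives the leaf axil; LOC105057259 and LOC105044616 reach about 100 FPKM in control +5, and no open symbol lies above 5.13 FPKM.

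The 8 genes with the highest control means had ratios from 2.08 to 4.21. LOC105047061 had 152, 159 and 192 FPKM in control at -27, -20 and +5 and 46.8, 73.2 and 51.4 in stress, the highest values of the 191 genes in both palms, with a ratio of 2.08. With the libraries scaled to the same median its ratio was 1.96, under the limit of 2. LOC105038913 had 120, 128 and 177 in control and 29.8, 23.9 and 28.2 in stress, a ratio of 4.05. Both stayed well expressed in the defoliated palm. LOC105044465 had 78.5, 90.7 and 72.7 in control and 31.5, 20.8 and 20.8 in stress.

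In the other genes of this abundant set, LOC105047312 among them, the level depended strongly on the axil. LOC105038349 went up along the control axils, 70.6, 92.4 and 140 FPKM, and down along the stress axils, 28.5, 22.6 and 8.54. LOC105060420 had 40.9, 52.6 and 176 in control and 10.2, 5.46 and 5.03 in stress. LOC105056320 had 58.7, 57.0 and 172 in control and 7.19, 4.44 and 13.5 in stress, so that +5 was the highest axil in both palms. LOC105056615, whose gene model overlaps another gene in the newer assembly, so that the reads of both may be mixed, had 77.3, 45.6 and 167 in control and 17.0, 13.6 and 19.5 in stress. Some abundant genes thus had control levels within 1.5-fold across the inflorescences, and others were well above their early values at the oldest axil of the control palm.

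Across the 191 genes the ratio of control to stress had a median of 4.24 at -27, 5.43 at -20 and 6.26 at +5. The medians over all 12064 records were 1.03, 1.07 and 1.13. All 191 genes were at least 2-fold lower under stress at each axil because the criteria required it, and among all records 5.7% at -27, 7.32% at -20 and 13.5% at +5 were. The ratio reached 5-fold in 85 genes at -27, 102 at -20 and 114 at +5, and 10-fold in 40, 55 and 65. The median ratio thus rose along the axils, and the same order held, at a far smaller size, for all records. From -20 to +5 the median went from 6.50 to 12.9 in the 36 genes with control +5 at least 2-fold above both early axils. It went from 28.9 to 11.96 in the 12 genes at least 2-fold below both, and from 4.84 to 4.93 in the other 143. The control values that set these classes also enter the ratios.

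For 180 genes a finite ratio could be formed at every axil. The largest of the 3 ratios was at -27 in 30 genes (16.7%), at -20 in 69 (38.3%) and at +5 in 81 (45.0%). Over all records with finite ratios the shares were 26.4%, 27.6% and 46.0%. The share at +5 was close to that of all records, and it was axil -20 that took more of the largest ratios among these genes and axil -27 that took fewer. The smallest ratio was at -27 in 86 genes, at -20 in 36 and at +5 in 58.

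Within a gene the largest ratio exceeded the smallest by a median of 2.13 times. It did so by under 1.5 times in 39 genes and by at least 3 times in 52. LOC105047958, picked after its values were seen as the most even gene, was at 28.8, 26.3 and 28.2 FPKM in control and at 9.93, 9.09 and 9.94 in stress, which gives ratios of 2.90, 2.89 and 2.84. LOC105057333, picked in the same way as the least even, was at 6.80, 5.25 and 23.8 in control and at 0.835, 0.473 and 0.0740 in stress, with ratios of 8.15, 11.1 and 322. The ratio of 322 rests on a stress value near 0 and is poorly determined. LOC105042221 also had its largest ratio at +5, where it was at 6.69 in control and 0.0497 in stress, while at -27 it was at 6.94 and 0.988.

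**Figure D3:**
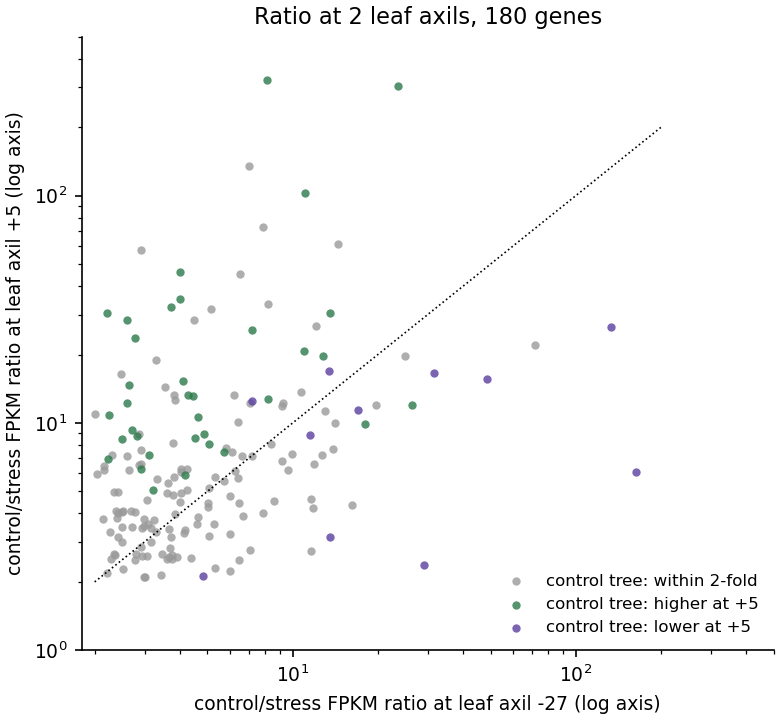
Ratio of control to stress FPKM at leaf axil +5 (vertical, log axis) against that at -27 (horizontal, log axis) for the 180 genes with finite ratios. Colours mark genes with control +5 at least 2-fold above both early axils, at least 2-fold below both, or neither (labelled within 2-fold). Points above the dotted line of equal ratios have the larger ratio at +5. Genes higher at +5 in control lie mostly above it, and genes lower at +5 in control mostly below it. Over all 36 genes of the first class, plotted or not, the median ratios were 4.23 at -27 and 12.9 at +5. Over all 12 of the second class they were 18.3 and 11.96. The control values that set the colours are also the numerators of both ratios, so this separation is partly built in.

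The selection set a floor under the control values but no order among the control axils. In control the highest axil exceeded the lowest by a median of 1.58 times, with 83 genes under 1.5 times and 65 at 2 times or more. In 36 of the 191 genes (18.8%) control +5 was at least 2-fold above both early axils, against 4.71% of the 12064 records. In 12 genes (6.28%) it was at least 2-fold below both, against 3.17%, and 143 were in neither class. Genes higher at the oldest axil were thus a larger share here than over all records. The criteria use the lowest of the control axils and favour no axil by name, but values of the same libraries enter both counts, so the comparison is a description.

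Differences of 2-fold between the early axils were rare. LOC105047564 alone was at least 2-fold higher at -20 than at -27 in control (3.54, 7.27 and 21.0 FPKM at -27, -20 and +5), against 0.274% of all records. LOC105048942 alone was at least 2-fold lower (11.6, 3.70 and 5.09), against 0.108% of all records. The early control values were a median of 1.16 times apart and under 1.5 times apart in 175 of the 191 genes.

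The largest increases from the early axils to +5 in the control palm were between 5.35 and 5.85 times the mean of -27 and -20. LOC105046097 (chromosome 5) had 3.12, 3.22 and 18.6 FPKM in control and 1.18, 0.0528 and 1.26 in stress. LOC105042101 (chromosome 3) had 12.6, 17.4 and 85.7 in control and 4.86, 3.67 and 3.03 in stress. LOC105032465 (chromosome 13) had 7.33, 5.80 and 35.1 in control and 2.64, 1.52 and 1.48 in stress. With LOC105051963, described above, these were the 4 genes with the largest increase, and only in the last was the stress value at +5 clearly above those of both early axils.

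The largest decreases in the control palm took +5 to between 0.106 and 0.231 times the early mean. The pseudogene LOC105032414 (chromosome 8) went from 33.6 and 32.1 FPKM at -27 and -20 to 3.49 at +5, while its stress values were 0.206, 0.430 and 0.575. LOC105047312 (chromosome 6) went from 150 and 156 to 18.5 in control and from 4.77 and 3.87 to 1.12 in stress. In LOC105047312 the younger inflorescences held the higher level in both palms, and in LOC105032414 in the control palm alone. LOC105033427 had 21.3, 24.1 and 5.09 in control and 1.26, 0.872 and 0.447 in stress. LOC114914504 had 14.6, 12.5 and 3.13 in control and 0.742, 0.286 and 0 in stress.

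In the defoliated palm the axil profile was described for the 126 genes with a stress FPKM of at least 1 in all 3 libraries. Of these, 3 (2.38%) were at least 2-fold higher at +5 than at both early axils, against 2.17% of the 11941 records with the same minimums. A further 10 (7.94%) were at least 2-fold lower, against 2.75%. Among these 126 genes the share higher at +5 was near that of all records. Genes lower at +5 made up a larger share than over all records in both palms. The minimum of 1 FPKM leaves out genes such as LOC105032735 (0.661, 0.825 and 3.33 in stress), which were higher at stress +5 from lower early values. The selection also caps every stress value, so the share higher at +5 cannot be set against that of the control palm. The difference between the palms was not tested.

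Gene by gene, 24 of the 36 genes higher at +5 in control had a stress profile. In 2 of these stress +5 was also at least 2-fold above both early axils, in 1 it was at least 2-fold below both, and 21 were in neither class. Stress +5 lay above both early values in 15 of the 24. Over all records the control increase was shared at 2-fold by 91 of 545, or 16.7%. LOC105051813 (chromosome 9) was one of the shared genes, with 20.2, 32.3 and 116 FPKM in control and 1.495, 1.78 and 3.79 in stress. The other was LOC105050331 (chromosome 8), with 7.72, 10.03 and 20.6 in control and 1.35, 1.25 and 2.75 in stress. Both genes were thus highest at +5 in both palms, at a much lower level in stress. The ratio of control to stress went from 13.5 at -27 to 30.6 at +5 in LOC105051813, so its increase was smaller in stress. In LOC105050331 it went from 5.72 to 7.48.

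Among the 10 genes lower at stress +5, only LOC105047312, given above, and LOC105048963 were also lower at control +5. LOC105048963 (chromosome 7) was at 94.2, 92.0 and 39.2 FPKM in control and at 7.005, 4.86 and 2.32 in stress. LOC105047822, with 59.6, 71.7 and 71.1 in control and 29.7, 19.5 and 6.47 in stress, declined along the axils in stress and did not in control. LOC105044900 had the same form, at 36.1, 48.9 and 50.7 in control and 10.2, 7.72 and 3.52 in stress. In all, 7 of the 10 genes were at control +5 neither 2-fold above nor 2-fold below both early axils. These 7 were not all of one form. LOC105058494 went down in control (46.1, 41.0 and 28.2) and was lower in stress only at +5 (11.4, 12.6 and 4.66). The last of the 10, LOC105058729, an RNA of no assigned class on chromosome 15, was higher at +5 in control (45.9, 42.5 and 102) and lower at +5 in stress (17.7, 18.5 and 8.31).

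**Figure D4:**
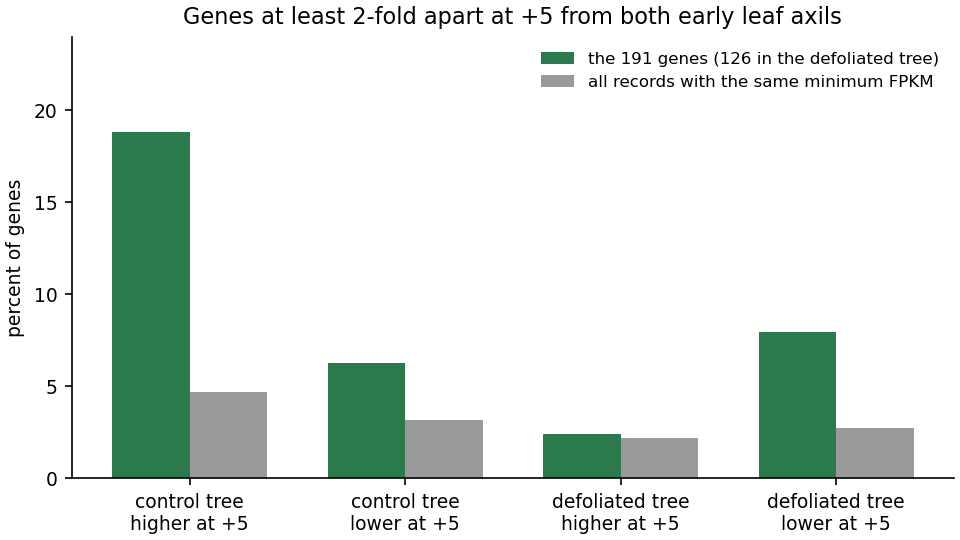
Percent of genes with leaf axil +5 at least 2-fold above or below both early axils, in the control palm and the defoliated palm, for the 191 genes (126 in the defoliated palm, green bars) and for all records with the same minimum FPKM (grey bars). The green and grey bars are at 18.8% and 4.71% for control higher, 6.28% and 3.17% for control lower, 2.38% and 2.17% for defoliated higher, and 7.94% and 2.75% for defoliated lower.

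Leaf axil +5 was also tested against -27 and -20 over both palms, with limma on log2(FPKM + 1) and the treatment as a covariate. The early axils of a palm stand in for each other in this test, so that its p-values measure the spread between these libraries only. The selection did not compare axils, but it used the same 6 values and limits how the libraries of a palm can vary, and all 191 genes passed the filter on low values through the control libraries in which they were chosen to be high. The counts below are therefore set beside those of all records as a description. Of 18728 records, 0.753% passed as higher and 0.699% as lower at an adjusted p under 0.01 and at least 2-fold. Of the 191 genes 1 passed as higher and 0 as lower, and 60 (31.4%) had an unadjusted p under 0.05 in limma against 25.5% of all records. Of these 60 genes, 40 were higher and 20 lower at +5. Over all 18728 records the same limit took 2549 as higher and 2233 as lower.

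The gene that passed was LOC105032735 (chromosome 6), with 17.4, 16.8 and 40.0 FPKM in control and 0.661, 0.825 and 3.33 in stress at -27, -20 and +5. Its +5 value was the highest in both palms, by 1.25 ± 0.14 (SE) on the log2(FPKM + 1) scale, with a Benjamini-Hochberg adjusted p of 0.00645 in limma. That scale understates the change of low genes, here the stress values. The call was lost when any one of the 4 early libraries was left out, with log2 fold changes of 1.21 to 1.27, and with stress +5 left out, 34 of the 191 genes passed (17.8%), against 6.43% of all records. Without stress +5 the only +5 library is control +5, so that fit compares axils in the control palm alone. Its stress libraries enter only through the residual spread, and the 191 genes were chosen to be low in them. The share without stress +5 is therefore no test over both palms, and the selection may have raised it. In the full test, LOC105048963 narrowly missed the threshold, at -1.14 ± 0.16 and a limma adjusted p of 0.0112. LOC105047312 had the largest decrease of those with an adjusted p under 0.05 (-2.15 ± 0.34, limma adjusted p 0.0168), and LOC105051963 the largest increase (1.74 ± 0.25, limma adjusted p 0.0129). At an adjusted p under 0.05 without a limit on the fold, 11 of the 191 genes were higher at +5 (5.76%, against 3.99% of all records) and 6 were lower (3.14%, against 3.65%).

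By annotation, 178 of the 191 genes were matched by identifier to the RefSeq gene table of the oil palm assembly EG11, which is newer than the assembly the authors aligned to. Protein-coding genes were 159 of the 191 (83.2%), against 92.0% of the 12064 records. Long non-coding RNAs were 11 (5.76%, against 1.33%) and pseudogenes 6 (3.14%, against 0.995%). A single gene was a small nucleolar RNA, LOC114914653, 1 was of another RNA class and 13 (6.81%, against 4.81%) were not matched. Non-coding and pseudogene records were thus a larger share here than over all records, as a description with no test. The table gives no product for an identifier, and all 191 genes carry LOC identifiers, so no function is assigned to them here.

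The lncRNAs differed widely in level and ratio. LOC105034379 (chromosome 11) was nearly level across the stress axils, at 56.1, 49.5 and 32.6 FPKM in control and 6.52, 5.53 and 7.14 in stress. LOC105054935 (chromosome 12) was at 45.5, 25.1 and 85.5 in control and 11.9, 6.88 and 6.46 in stress. Of the 11, LOC105033102 and LOC105043021 were at 0 throughout the defoliated palm. LOC105032305, LOC105040654, LOC105033025 and LOC105042065 had control values between 3.11 and 5.61 and stress values of at most 1.62. Among the pseudogenes, LOC105056414 was one of the 3 genes, of the 126 described there, higher at +5 in the defoliated palm (1.19, 1.15 and 2.53). Its control values were 13.8, 17.7 and 11.7.

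The genes with a position lay on 16 chromosomes, from 1.22% of the eligible records on chromosome 5 to 2.48% on chromosome 13. They were mostly scattered, with 3 pairs of direct neighbours. Order was taken only among the identifiers on 1 record, here and below, so other EG11 genes may lie between neighbours. On chromosome 13, LOC105056006 (25.3, 32.2 and 40.0 FPKM in control, 2.74, 2.62 and 3.27 in stress) lies next to LOC105056005 (9.23, 10.6 and 17.7 in control, 1.58, 2.22 and 2.28 in stress). Both went up along the control axils and stayed level and low in the defoliated palm. Of the genes on either side, LOC105056008 was too low to compare, under 0.73 in all libraries, and LOC105056004 was at 5.80, 5.82 and 3.88 in control and higher, at 6.79, 7.11 and 8.87, in stress.

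The other pairs form a run on chromosome 9. LOC105051814 had 38.2, 37.6 and 56.9 FPKM in control and 4.16, 2.33 and 4.78 in stress. LOC105051815 had 9.57, 8.51 and 4.48 in control and 1.48, 1.21 and 1.801 in stress, and LOC105051816 had 20.8, 18.0 and 13.4 in control and 2.95, 2.31 and 4.83 in stress. The control profiles of the run were not alike, with +5 highest in LOC105051814 and lowest in the other two. In EG11 LOC105051815 overlaps both of the others, and reads of overlapping genes may be mixed, so the levels of these genes are uncertain. LOC105051813, given above among the genes higher at +5 in both palms, lies beyond the run with 1 gene between.

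That gene between, LOC105051817, was higher under stress at every axil, with 15.2, 15.6 and 16.4 FPKM in control and 20.8, 18.3 and 24.6 in stress. LOC105051818, on the other side of the run, was also higher under stress (4.62, 4.85 and 5.38 in control, 6.68, 7.22 and 8.92 in stress). The stretch was therefore not low as a whole in the defoliated palm. A further pair with 1 gene between, on chromosome 4, was LOC105042511 (3.83, 3.75 and 3.50 in control, 1.25, 1.05 and 1.34 in stress) and LOC105042593 (19.0, 21.8 and 51.8 in control, 4.55, 2.65 and 8.78 in stress). Counting the run, 13 of the 191 genes overlap another gene in EG11.

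**Figure D5:**
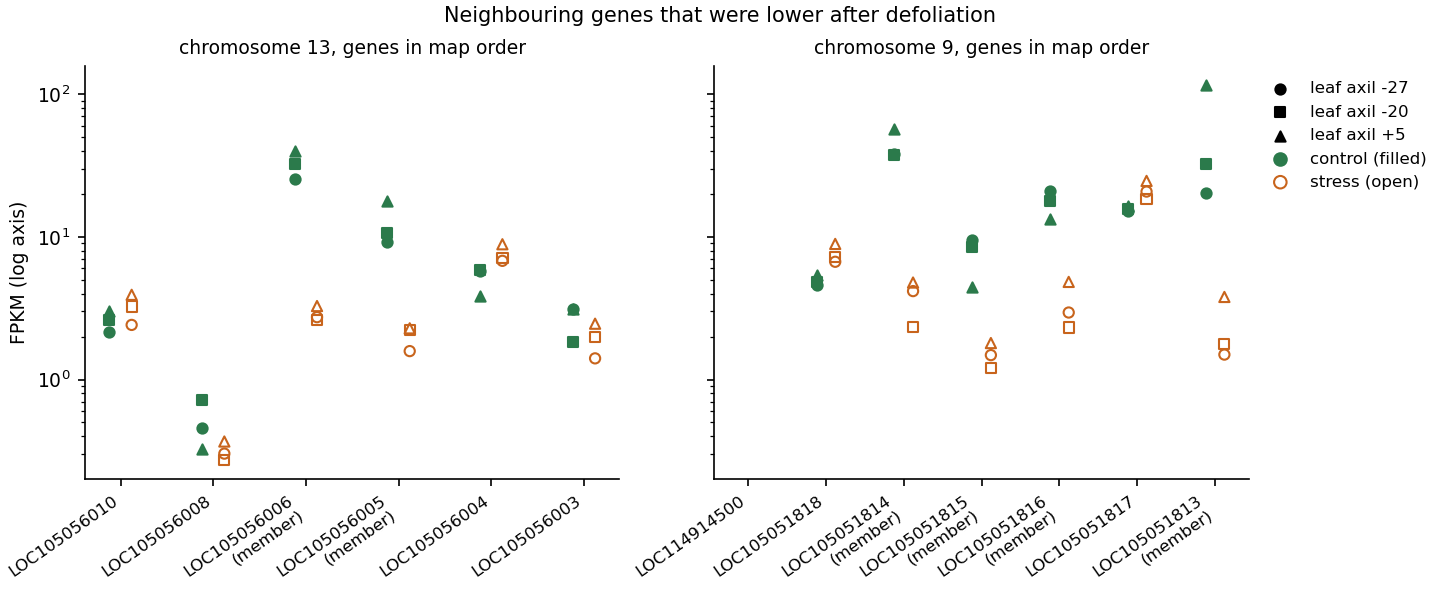
FPKM (log axis) of neighbouring genes in map order on chromosome 13 (left) and chromosome 9 (right), with filled symbols for control, open symbols for stress and the symbol shape for the leaf axil. Genes of the 191 are marked as members and have all filled symbols above all open ones, whereas LOC105056004, LOC105051818 and LOC105051817 have their open symbols above the filled ones; LOC114914500 is at 0 in all libraries and has no symbol.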

How the data were processed

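RNA from inflorescences at 3 leaf axils of a control and a completely defoliated oil palm gave 6 RNA-seq libraries. The authors aligned untrimmed reads with HISAT2 2.1.0 and quantified genes with StringTie 1.3.4, and the deposited values are FPKM per gene. DESeq2 1.18.1 is also named in the submitters' processing notes and was not run here, since FPKM values are not counts.

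The genes were selected on the deposited FPKM with Python 3.11.15 and pandas 2.3.3. The genes, lists and tests were chosen with earlier results of these data known. Leaf axil +5 was tested against -27 and -20 with limma 3.58.1 in R 4.3.3 (mean-variance trend, treatment as covariate, Benjamini-Hochberg adjustment) on log2(FPKM + 1), over the 18728 records that reached 1 FPKM in 3 or more libraries. The script was tested on simulated data. A gene passed at an adjusted p under 0.01 and at least 2-fold.

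Named genes were those at 0 in all stress libraries, the 12 largest ratios, the 8 highest control means, those nearest the limits, the 4 largest increases and decreases at control +5, direct neighbours and genes that passed the test. Genes named as having 0 in 1 or 2 stress libraries, as even or uneven, by stress profile, by RNA class, or in a pair with 1 gene between were chosen after their values were seen. Identifiers were matched to a RefSeq table of EG11, used for RNA class, chromosome, order and overlap only. Planned descriptions by product name, protein motif and promoter motif were not run. Alternatives were other folds, minimums, pseudocounts, scalings and filters, and leaving out each library.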

Additional observations from a re-analysis of the deposited data

Results flagged for a closer look

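The 126 genes with every stress FPKM at least 1 were compared between the palms, which leaves out LOC105057259, described above. Of these 126, only LOC105058729 had +5 at least 2-fold above both early axils in control and at least 2-fold below both in stress. Its FPKM was 45.9, 42.5 and 102 at -27, -20 and +5 in control and 17.7, 18.5 and 8.31 in stress. The log2 ratio of +5 to the early mean was 1.21 in control and -1.12 in stress, a difference of 2.33. With 1 library per treatment and axil this difference was not tested.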

How the results depend on the processing

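The number of genes followed the limits. It was 436 at a fold of 1.5, 83 at a fold of 3, 287 at a minimum FPKM of 1 and 85 at a minimum of 10. Leaving out 1 library gave 209 to 312 genes, with 312 without control +5 and 302 without stress +5. Under these criteria that can only keep or add genes, so it does not test the 191. A ratio of FPKM + 1 left 138, quantile normalization 156 and scaling to the same median 165, all of them among the 191. Under quantile normalization and under scaling to the same median, 32 of the 35 named ratios stayed at 2 or more.

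In the test of leaf axil +5, 272 records passed. This became 115 with no filter, 171 at a mean FPKM of at least 5, 3 with no treatment term, and 0 to 1204 with 1 library left out (412 without control +5, 1204 without stress +5, and at most 5 without any one of the early libraries). Of the 191 genes, 1 passed. The number was 2 with a pseudocount of 0.1, with quantile normalization and with centring on medians, 0 with no filter (54 at an unadjusted p under 0.05), 0 with no treatment term (0 at an unadjusted p under 0.05) and 0 to 34 with 1 library left out (6 without control +5, 34 without stress +5, 0 without any one of the early libraries, where 39 to 63 had an unadjusted p under 0.05). Over all records, 227, 262 and 287 passed with a pseudocount of 0.1, quantile normalization and centring on medians. An unadjusted limma p under 0.05 was reached by 6160 of 26161 records with no filter. Of 18728 records, 2919 reached it with no treatment term and 3622 to 4170 without any one of the early libraries. The call for LOC105032735 was lost without any one of the early libraries (log2 fold change 1.21 to 1.27), with no filter, with no treatment term and with a pseudocount of 0.1 (1.62). The fits without control +5 and without stress +5 each hold leaf axil +5 from a single palm, so their counts do not test both palms. In the full test, the lenient threshold of an adjusted p under 0.05, chosen after seeing the data, passed 17 of the 191 genes. In the control palm a fold of 3 left 18 genes higher and 5 lower at +5, and a fold of 1.5 gave 22 lower. In the defoliated palm, for alternatives also chosen after seeing the data, folds of 1.5 and 3 gave 14 and 0 higher and 16 and 2 lower.

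With 1 library per treatment and axil no spread within a group was available. Treatment was the block in the test of leaf axil +5, and control against stress was not tested, paired by axil or otherwise. Values under about 1 FPKM rest on few fragments, and ratios over them are imprecise.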
